A study of Mus musculus with 12 samples.

Results

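The secreted Wnt antagonists described here are Wif1, Sfrp1, Sfrp2, Sfrp4, Sfrp5, Dkk1, Dkk2, Dkk3 and Frzb. They were taken by symbol from the Mouse Gene 1.0 ST array, each as the feature whose annotation gives that symbol alone, which was 1 feature for each gene and 9 of the 28853 features on the array. All 9 were among the tested features. Expression was measured in pulverized ankle joints of 12 C57BL/6 mice, 3 in each of 4 groups. Arthritic mice had received 150 µl of K/BxN serum, which carries arthritis-inducing antibodies, into the peritoneum on days 0 and 2 and were killed on day 7. Mmp8+/+ and Mmp8-/- mice were studied with and without arthritis, and the labels describe the control mice only as being without arthritis. Mmp8 encodes a neutrophil collagenase, and in Mmp8-/- mice it is deleted in the whole body. The line had been backcrossed to C57BL/6, the methods describe male mice aged 6 to 8 weeks at serum transfer, and no other allele or agent is named for any group. Mice are numbered 1 to 3 within a group in the order of the table.

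Wnt proteins are secreted ligands that bind Frizzled receptors together with the co-receptors Lrp5 and Lrp6, which leads to stabilization of beta-catenin and transcription through TCF/LEF factors. The secreted frizzled-related proteins, which include Frzb, carry a Frizzled-like cysteine-rich domain and bind Wnt ligands outside the cell, and Wif1 binds Wnt ligands through its own domain. Dkk1 and Dkk2 act on the co-receptors instead, and Dkk3 is a divergent member of the Dickkopf family. In joints the pathway is known for its roles in bone formation and in the upkeep of articular cartilage.

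The antagonists divided into a pair that rose and a larger group that fell with arthritis. In Mmp8+/+ mice 8 of the 9 genes passed the test at an adjusted p under 0.05, with 2 higher and 6 lower in arthritic joints, where 18.8% of all tested features passed, 7.3% of them higher and 11.5% lower. In Mmp8-/- mice 7 of the 9 passed, with 2 higher and 5 lower, beside 21.5% of tested features, 8.05% of them higher and 13.5% lower. The same 7 genes were called in the same direction in both genotypes, a pattern shown by 12.2% of tested features. The median size of the change was 1.66 on the log2 scale in Mmp8+/+ and 1.64 in Mmp8-/- mice, against 0.29 and 0.32 over all tested features. The 9 genes were chosen with earlier results of these data known, so these contrasts describe the genes and do not test the family. The arrays were whole-joint RNA, in which fewer cells of a type and less RNA per cell cannot be told apart.

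Arrays that go against their labelled genotype, or against the sex given in the methods, bear on the control groups. Mmp8 had a log2 signal of 10.21 to 11.16 on the 6 Mmp8+/+ arrays and of 4.64 to 5.54 on 5 of the 6 arrays labelled Mmp8-/-. The array labelled Mmp8-/- control 2 read 10.65, within the Mmp8+/+ range. Xist, the RNA that coats an inactive X in female cells, read 10.42 in Mmp8+/+ control 1 and 10.92 in the array labelled Mmp8-/- control 1, against 4.66 to 5.41 on the other 10 arrays. The Y chromosome gene Eif2s3y read 4.02 and 4.16 on these arrays, against 7.94 to 9.27 on the other 10. Both therefore read as female, and both were controls. The markers of the labelled tissue were present, with a mean log2 signal of 9.52 for the cartilage collagen gene Col2a1, 11.84 for the bone sialoprotein gene Ibsp and 13.25 for the lubricin gene Prg4. Without the array labelled Mmp8-/- control 2, 8 and 7 antagonists were called, where the share of all tested features called was 17.2% in Mmp8+/+ and 12.8% in Mmp8-/- mice. The arthritis differences in Mmp8-/- mice were then 3.16 for Sfrp1, 2.71 for Sfrp2, -2.68 for Wif1, -2.45 for Frzb, -1.64 for Sfrp4, -1.02 for Dkk1 and -0.66 for Dkk2 on the log2 scale, with adjusted p from 2.75e-06 to 0.0367 in limma, and -0.33 for Sfrp5 and 0.12 for Dkk3, which were not called. Without that array and both arrays with Xist signal, which left 1 array in the Mmp8-/- control group, 8 were called in Mmp8+/+ mice and 4 in Mmp8-/- mice, namely Sfrp1, Sfrp2, Wif1 and Frzb. The share of all tested features called fell with this removal to 9.23% in Mmp8+/+ and 2.55% in Mmp8-/- mice.

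Sfrp1, which encodes a frizzled-related protein that can bind Wnt ligands, had the largest change of the 9 genes. Its log2 signal was 7.04, 7.38 and 7.53 in Mmp8+/+ controls and 7.51, 7.74 and 7.28 in the mice labelled Mmp8-/- controls. In arthritic mice it was 10.94, 11.14 and 10.59 in Mmp8+/+ and 10.78, 10.65 and 10.26 in Mmp8-/- mice. Every arthritic mouse was therefore far above every control mouse, with no overlap in either genotype. Sfrp1 rose by 3.57 (SE 0.20) in Mmp8+/+ mice, an 11.9-fold difference (adjusted p = 6.48e-08, limma), and only 4 tested features rose more. In Mmp8-/- mice it rose by 3.05, or 8.28-fold (adjusted p = 3.7e-07, limma), and 10 tested features rose more. The study listed Sfrp1 among genes it chose on these same arrays for unequal changes in the genotypes, so its appearance there is not independent of these values.

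Sfrp2, a second frizzled-related gene of mesenchymal cells, rose nearly as far. It read 9.09, 9.10 and 9.24 in Mmp8+/+ controls and 8.93, 9.51 and 9.23 in the mice labelled Mmp8-/- controls. Arthritic mice read 11.91, 12.27 and 11.89 with Mmp8 and 11.55, 12.02 and 11.79 without it. Again the lowest arthritic mouse lay above the highest control. The rise was 2.88 (SE 0.18) or 7.34-fold in Mmp8+/+ mice (adjusted p = 2.22e-07, limma) and 2.57 or 5.92-fold in Mmp8-/- mice (adjusted p = 8.54e-07, limma), with 19 and 17 tested features rising more. Over the 12 arrays, each gene centred on its own mean, Sfrp1 and Sfrp2 differed by a root mean square of 0.37. The most distant pair was Sfrp1 and Wif1 at 3.02, and the closest was Sfrp5 and Dkk2 at 0.23, which both changed less.

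The promoters of 4 antagonists that the results turn on, 1 that rose and 3 that fell, are shown so that their letters can be compared. They are from RefSeq on GRCm38.p6 and run from 250 bases before the transcription start to 50 after it, 5′ to 3′ on the strand of the gene. Sfrp2 lies at chr3:83766071-83766370 on the plus strand, Wif1 at chr10:121033754-121034053 on the plus strand, Frzb at chr2:80447347-80447646 on the minus strand and Dkk1 at chr19:30549447-30549746 on the minus strand. Capitals mark matches, on either strand, to the TCF/LEF core CTTTGA, the TATA box TATAAA and the NF-kappaB motif.
Sfrp2: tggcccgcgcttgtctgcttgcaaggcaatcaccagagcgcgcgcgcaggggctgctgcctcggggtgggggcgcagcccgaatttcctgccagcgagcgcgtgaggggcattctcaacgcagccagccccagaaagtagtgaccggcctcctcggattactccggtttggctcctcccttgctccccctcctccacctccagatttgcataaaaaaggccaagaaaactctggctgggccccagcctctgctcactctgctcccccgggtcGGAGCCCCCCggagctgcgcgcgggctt
Wif1: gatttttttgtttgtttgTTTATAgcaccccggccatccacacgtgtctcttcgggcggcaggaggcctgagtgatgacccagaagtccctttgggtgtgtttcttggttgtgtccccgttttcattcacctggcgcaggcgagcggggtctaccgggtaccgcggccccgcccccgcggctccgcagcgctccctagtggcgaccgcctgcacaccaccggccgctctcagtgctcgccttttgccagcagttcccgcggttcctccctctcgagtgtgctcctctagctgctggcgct
Frzb: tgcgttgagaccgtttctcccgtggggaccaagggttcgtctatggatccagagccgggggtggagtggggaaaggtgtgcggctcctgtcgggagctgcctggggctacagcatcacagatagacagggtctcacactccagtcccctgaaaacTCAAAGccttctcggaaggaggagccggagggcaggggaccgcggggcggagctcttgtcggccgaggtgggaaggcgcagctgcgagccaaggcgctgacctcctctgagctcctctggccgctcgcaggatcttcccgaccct
Dkk1: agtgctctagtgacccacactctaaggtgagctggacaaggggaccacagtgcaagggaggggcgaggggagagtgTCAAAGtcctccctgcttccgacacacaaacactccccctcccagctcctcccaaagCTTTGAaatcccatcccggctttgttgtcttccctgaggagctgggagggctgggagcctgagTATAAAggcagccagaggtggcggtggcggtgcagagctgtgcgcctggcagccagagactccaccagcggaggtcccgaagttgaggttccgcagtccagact

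The RefSeq table held promoters for 6 of the 9 genes, and Sfrp1, Sfrp4 and Dkk3 are only named. The TCF/LEF core was present in 2 of the 6, on both strands in Dkk1 and once in Frzb, where 16.0% of 32851 promoters of the same length hold it. The TATA box was present in Dkk1, Dkk2 and Wif1, against 13.6% of promoters, and in Wif1 it was on the reverse strand near the upstream end. The NF-kappaB motif was found in Sfrp2 alone of the 6, downstream of the start, against 8.46% of promoters. The AP-1 core TGANTCA was found in 0 of the 6, against 7.81% of promoters. All 6 promoters were GC-rich, with 57.7% to 66% G and C against a median of 52.7%. The motifs do not overlap each other in these sequences, and a match describes letters only.

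**Figure D1:**
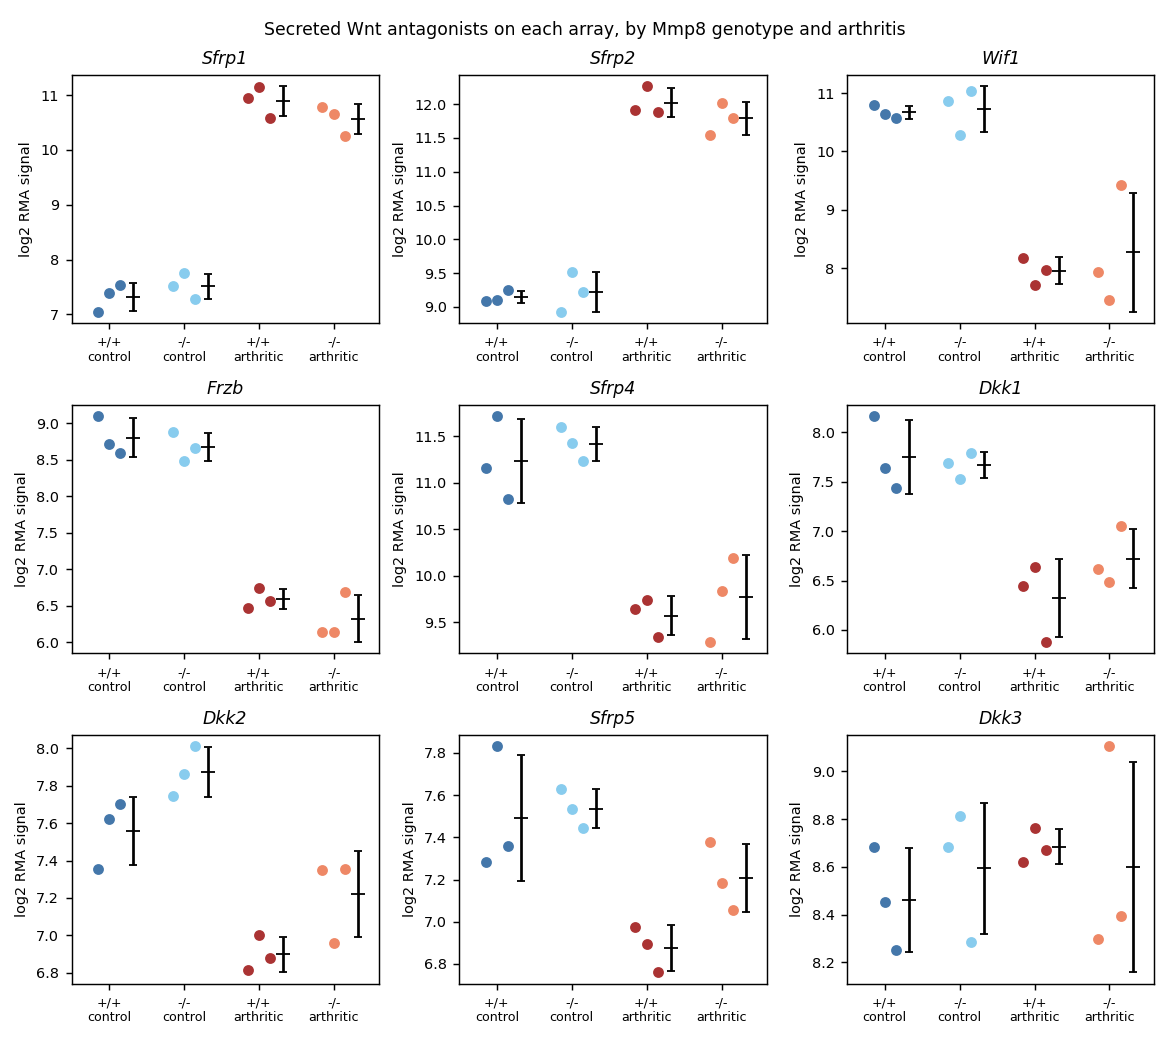
Log2 RMA signal (vertical axis) of the 9 secreted Wnt antagonists in each mouse, 1 panel per gene, with the 4 groups of 3 mice along the horizontal axis; each point is a mouse and the bar gives the group mean with its SD. Sfrp1 and Sfrp2 were higher in all 6 arthritic mice, Wif1, Frzb, Sfrp4 and Dkk1 lower in all 6, and Dkk3 overlapped.

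Wif1, which binds Wnt ligands directly, had the largest fall. Its log2 signal was 10.79, 10.65 and 10.57 in Mmp8+/+ controls and 10.86, 10.28 and 11.04 in the mice labelled Mmp8-/- controls. Arthritic Mmp8+/+ mice read 8.18, 7.71 and 7.96, and arthritic Mmp8-/- mice read 7.94, 7.45 and 9.42. The groups did not overlap in either genotype, but mouse 3 of the arthritic Mmp8-/- group stood well above its mates. Wif1 fell by 2.72 (SE 0.36) in Mmp8+/+ mice, to a level 6.57-fold lower (adjusted p = 0.000151, limma), and the log2 difference in Mmp8-/- mice was -2.46 (adjusted p = 0.000358, limma). Only 39 and 60 tested features fell more. Without arthritic Mmp8-/- mouse 3 the difference in Mmp8-/- mice was -3.03.

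Frzb, a frizzled-related gene known from chondrocytes, fell almost as much. It read 9.10, 8.72 and 8.59 in Mmp8+/+ controls and 8.88, 8.49 and 8.66 in the mice labelled Mmp8-/- controls. In arthritic mice it read 6.48, 6.74 and 6.57 with Mmp8 and 6.14, 6.14 and 6.70 without it. All 6 arthritic mice were thus below all 6 control mice. Frzb fell by 2.21 (SE 0.19), or 4.61-fold, in Mmp8+/+ mice (adjusted p = 3.94e-06, limma) and was 5.10-fold lower in Mmp8-/- mice (log2 difference -2.35, adjusted p = 2.96e-06, limma). The difference between its changes in Mmp8-/- and Mmp8+/+ mice was -0.15 with a 95% interval from -0.73 to 0.43. Of the other antagonists, Wif1 was most like Frzb over the 12 arrays, at a root mean square difference of 0.44.

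Sfrp4, a frizzled-related gene with a known role in bone, had a strong signal in control joints. It was 11.15, 11.72 and 10.82 in Mmp8+/+ controls and 11.59, 11.43 and 11.23 in the mice labelled Mmp8-/- controls. Arthritic mice gave 9.64, 9.74 and 9.34 with Mmp8 and 9.29, 9.84 and 10.19 without it. The highest arthritic mouse was below the lowest control. Sfrp4 fell by 1.66 (SE 0.25), or 3.15-fold, in Mmp8+/+ mice (adjusted p = 0.00035, limma) and by 1.64, or 3.13-fold, in Mmp8-/- mice (adjusted p = 0.000393, limma).

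Of the Dickkopf genes, Dkk1 and Dkk2 fell. Dkk1, an antagonist of Lrp5 and Lrp6 that restrains bone formation, read 8.17, 7.64 and 7.44 in Mmp8+/+ controls and 7.69, 7.53 and 7.79 in the mice labelled Mmp8-/- controls. It read 6.45, 6.64 and 5.88 in arthritic Mmp8+/+ mice and 6.62, 6.48 and 7.06 in arthritic Mmp8-/- mice. No arthritic mouse reached the control range. The fall was 2.69-fold in Mmp8+/+ mice (log2 difference -1.43, SE 0.23, adjusted p = 0.000661, limma) and 1.93-fold in Mmp8-/- mice (log2 difference -0.95, adjusted p = 0.0106, limma).

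Dkk2, a relative of Dkk1 that binds the same co-receptors, moved less. It was 7.35, 7.62 and 7.70 in Mmp8+/+ controls, and the mice labelled Mmp8-/- controls were all above these at 7.75, 7.86 and 8.01. Arthritic Mmp8+/+ mice read 6.81, 7.00 and 6.88, and arthritic Mmp8-/- mice read 7.35, 6.96 and 7.36. Within each genotype the arthritic mice were lower, without overlap, although the upper Mmp8-/- arthritic values met the lowest Mmp8+/+ control. The fall was 1.58-fold in Mmp8+/+ mice (log2 difference -0.66, adjusted p = 0.011, limma) and 1.57-fold in Mmp8-/- mice (log2 difference -0.65, adjusted p = 0.0122, limma).

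Sfrp5, a frizzled-related gene known as an adipose factor, passed the test only in Mmp8+/+ mice. There the controls ranged from 7.29 to 7.83 and the arthritic mice from 6.76 to 6.98, a log2 difference of -0.61 (adjusted p = 0.0199, limma). In Mmp8-/- mice the ranges were 7.44 to 7.63 and 7.06 to 7.38, and the difference of -0.33 had a 95% interval from -0.69 to 0.03 (adjusted p = 0.16, limma). The difference between these changes was 0.28, with a 95% interval from -0.22 to 0.79, so they were not shown to differ. The call in Mmp8+/+ mice was lost without control 2 (adjusted p = 0.0941, limma), arthritic mouse 2 (adjusted p = 0.0518) or arthritic mouse 3 (adjusted p = 0.0714). Dkk3, the divergent Dickkopf gene, ranged from 8.25 to 8.81 in controls and from 8.30 to 9.11 in arthritic mice, with overlap. Its differences of 0.22 and 0.01 had 95% intervals of -0.23 to 0.68 and -0.45 to 0.46.

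Beside these tests, the groups of 8 antagonists did not overlap between control and arthritic mice in either genotype, where 40.3% of tested features in Mmp8+/+ and 39.5% in Mmp8-/- mice did not overlap. Ordinary regression on the 6 arrays of a genotype borrows no variance from other genes or from the other genotype. It called 4 of the 9 in Mmp8+/+ mice, beside 4.48% of all tested features. In Mmp8-/- mice it called 0 of the 9 and 0% of all tested features, so that this count is not particular to the antagonists, and the fold changes were those of the limma fit.

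**Figure D2:**
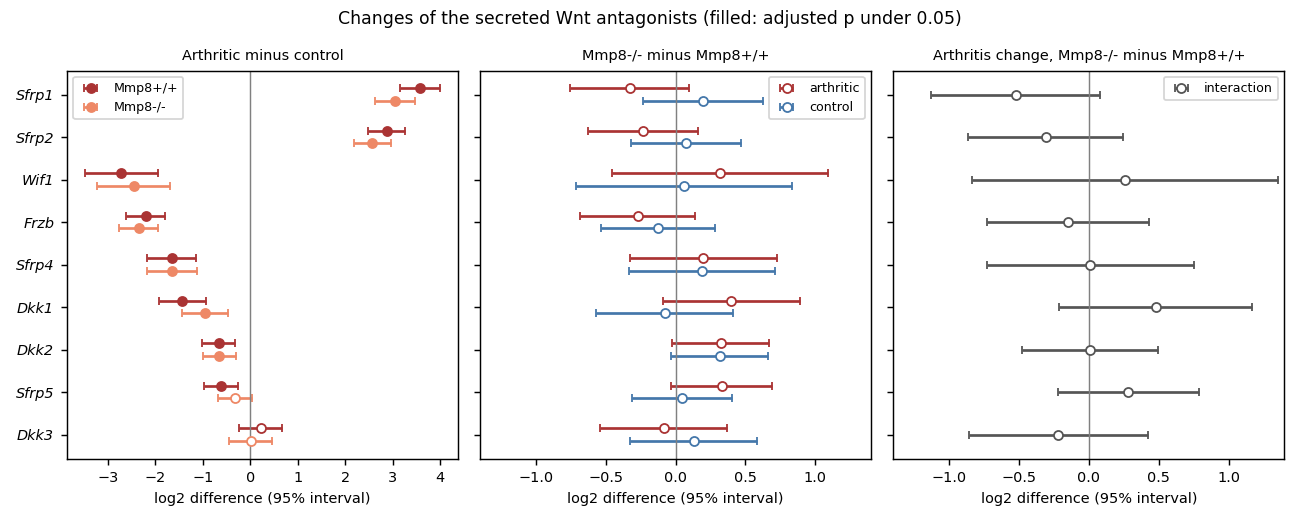
Log2 differences of the 9 genes (horizontal axes) with their 95% intervals, for arthritic minus control mice in each genotype, Mmp8-/- minus Mmp8+/+ mice in each state, and the difference between the arthritis changes; filled points passed an adjusted p of 0.05. Only the arthritis panel holds filled points, for 8 genes in Mmp8+/+ and 7 in Mmp8-/- mice.

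The second question of the design was whether loss of Mmp8 altered these levels. Between arthritic Mmp8-/- and Mmp8+/+ mice 0 of the 9 antagonists passed the test, where 0.00541% of tested features did, and none had an unadjusted p under 0.05. Between the control groups, and for the interaction of genotype with arthritis, 0 of the 9 passed as well, where 0% of tested features did. At an unadjusted p under 0.05, 537, 600 and 588 tested features stood out in the 3 comparisons, and 0 of these were antagonists. These comparisons of the same 12 arrays share their groups. The test also did not call Mmp8 itself between arthritic mice, at a log2 difference of -5.54 without overlap (adjusted p = 0.377, limma). Its spread in this fit took in the array labelled Mmp8-/- control 2, which read 10.65. The lack of calls therefore does not show that levels were equal.

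The intervals show what sizes remained possible. Sfrp1 was 0.33 lower in arthritic Mmp8-/- mice, with a 95% interval from -0.76 to 0.10, and its rise was smaller by 0.52, with an interval from -1.13 to 0.08 (adjusted p = 1.0, limma). Over 23 alternatives in processing and in the arrays used, this difference between the rises of Sfrp1 ran from -0.67 to -0.16. The value of -0.16 came without the 3 control arrays that go against their labelled genotype or the stated sex. That removal left 1 array in the Mmp8-/- control group. Wif1 was 0.32 higher in arthritic Mmp8-/- mice, with an interval from -0.46 to 1.09. This direction rested on arthritic Mmp8-/- mouse 3, since without it the difference was -0.26. For Dkk1 the difference was 0.40, with an interval from -0.09 to 0.89. Its arthritis changes differed by 0.48, with an interval from -0.21 to 1.17, and by 0.15 without the same 3 control arrays. Sfrp5 was higher in all 3 arthritic Mmp8-/- mice than in any arthritic Mmp8+/+ mouse, by 0.33 with an interval from -0.03 to 0.69. It was the 1 antagonist without overlap there, beside 6.37% of tested features, 3% higher and 3.37% lower. Dkk2 was the 1 antagonist without overlap between the controls, by 0.31 with an interval from -0.03 to 0.66, beside 7.9% of tested features, 4.13% higher and 3.77% lower. With the array labelled Mmp8-/- control 2 left out, this difference was 0.32. That array read 7.86 for Dkk2, above Mmp8-/- control 1 at 7.75, so counting it as Mmp8+/+ would make the controls overlap.

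For every antagonist but Dkk3, the order of the group means therefore set both control groups apart from both arthritic groups. Sfrp1 ran from 7.32 ± 0.25 (SD, n = 3) and 7.51 ± 0.23 in Mmp8+/+ controls and the mice labelled Mmp8-/- controls to 10.56 ± 0.27 in arthritic Mmp8-/- and 10.89 ± 0.28 in arthritic Mmp8+/+ mice. Wif1 ran from 7.95 ± 0.23 in arthritic Mmp8+/+ and 8.27 ± 1.02 in arthritic Mmp8-/- mice to 10.67 ± 0.11 in Mmp8+/+ controls and 10.73 ± 0.40 in the mice labelled Mmp8-/- controls. Within each such pair of neighbours the difference between the genotypes did not pass the test. The wide SD of Wif1 in arthritic Mmp8-/- mice came with mouse 3 of that group.

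That mouse had the highest signal of its group for 5 antagonists that fell, Wif1, Frzb, Sfrp4, Dkk1 and Dkk2, and the lowest for Sfrp1 and Sfrp5. It also had the highest mean of its group for 8 of 12 lists of cell type markers. Its cartilage list mean was 8.59, against 7.81 and 7.86 in the other arthritic Mmp8-/- mice, and its bone list mean was 8.96, against 8.20 and 8.39. The part of tissue make-up in these values was not tested.

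Markers of several joint tissues moved with arthritis beside the antagonists. The counts of markers are to be read beside the 18.8% of all tested features called in Mmp8+/+ and 21.5% in Mmp8-/- mice. Of 20 cartilage markers, 6 were lower and 3 higher in arthritic Mmp8+/+ mice, and 8 were lower and 3 higher in arthritic Mmp8-/- mice. Their summed level, as the mean log2 signal of the list, ranged from 8.47 to 8.90 over the 6 controls and from 7.81 to 8.59 over the 6 arthritic mice. Bone markers fell in 7 of 9 and 6 of 9 cases, and their mean went from a range of 9.24 to 10.01 in controls to 8.20 to 8.96 in arthritic mice. These ranges did not overlap for bone, and for cartilage they met only through arthritic Mmp8-/- mouse 3. Synovial lining markers fell in 6 of 9 cases in both genotypes, from 10.02 to 10.38 in controls to 8.48 to 8.84. Adipocyte markers fell in 12 of 13 cases in both genotypes, from 9.13 to 9.93 down to 7.60 to 8.11. Their part in the fall of Wif1, Frzb, Sfrp4, Sfrp5, Dkk1 and Dkk2 was not tested.

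Fibroblast markers gave a mixed picture beside the rise of Sfrp1 and Sfrp2. Of 15 fibroblast markers 5 were higher and 0 lower in arthritic Mmp8+/+ joints, and 2 higher and 5 lower in arthritic Mmp8-/- mice. The list mean was 10.50 to 10.69 in controls and 10.71 to 10.84 in arthritic mice of the Mmp8+/+ genotype, without overlap, and 10.79 to 10.85 and 10.36 to 10.83 in Mmp8-/- mice, with overlap. The part of fibroblast content in the rise of Sfrp1 and Sfrp2 was not tested. Tendon markers were higher in 3 and 2 of 8 cases, and 0 were lower. Muscle markers were lower in 13 and 7 of 14 cases and Schwann cell markers in 4 of 6 in both genotypes. Macrophage markers were higher in 2 and lower in 4 of 13 in both genotypes. The list means of controls and arthritic mice did not overlap for muscle (10.55 to 11.70 against 8.67 to 10.28), Schwann cells (8.14 to 8.59 against 7.20 to 7.79) or macrophages (9.50 to 9.75 against 8.90 to 9.40). Neutrophil markers were higher in 2 and lower in 4 of 14 in Mmp8+/+ mice, and higher in 2 with 0 lower in Mmp8-/- mice. Endothelial markers were lower in 1 and 3 of 10, with 1 and 0 higher. Keratinocyte markers passed in 0 of 11 cases in Mmp8+/+ mice and were lower in 3 in Mmp8-/- mice, and their mean was 7.11 to 7.35 in arthritic Mmp8-/- mice against 8.06 to 8.83 in arthritic Mmp8+/+ mice.

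**Figure D3:**
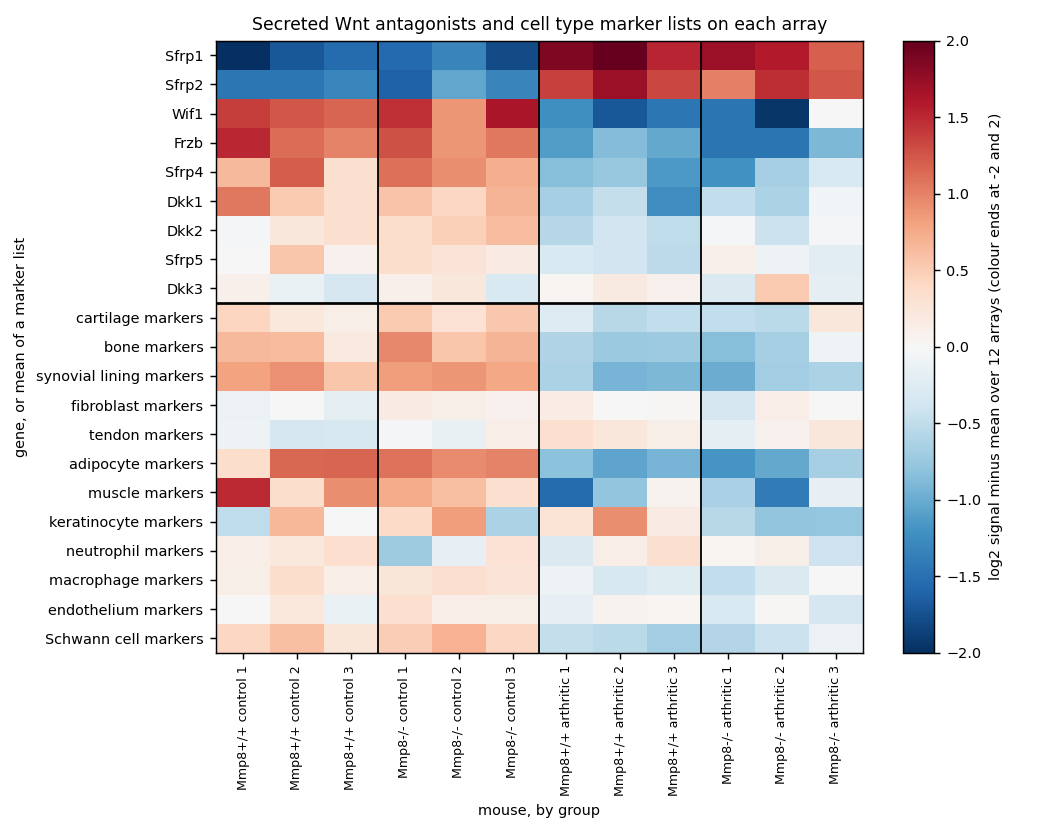
Log2 signal of the 9 genes and mean log2 signal of 12 marker lists in each mouse, minus the mean of that row over the 12 arrays (colour, from -2 to 2, blue lower and red higher); columns are the mice by group. Sfrp1 and Sfrp2 turn from blue to red with arthritis, and Wif1, Frzb, Sfrp4 and Dkk1 were higher in all 6 controls than in any arthritic mouse, as were the means of the bone, synovial lining, adipocyte, muscle, macrophage and Schwann cell lists.

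The features most like each antagonist over the 12 arrays were found by the root mean square difference after centring. Closest to Wif1 was Omd, the gene of the bone proteoglycan osteomodulin, at 0.24, with Pcsk6 and Rerg at 0.30 and 0.31. Closest to Sfrp1 was P4ha3, a collagen prolyl hydroxylase gene, at 0.24, with Crabp2 and Chl1 at 0.32 and 0.34. Sfrp2 was most like the zinc transporter gene Slc39a14 at 0.24, with C1qtnf3 and Ddah1 at 0.25 each.

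Frzb was most like Colgalt2, a collagen galactosyltransferase gene, at 0.19, with S100b and Id4 at 0.20 and 0.21. Sfrp4 was most like Sema5a at 0.16, with Plekhh2 and the Hedgehog receptor gene Ptch1 at 0.17 and 0.18. For Dkk1 the closest were Ptgis, the prostacyclin synthase gene, and Pla2g12a at 0.21 each and Ntn1 at 0.22. For Dkk2 they were Gbp5 at 0.11 and Hlf and Pard6g at 0.15 each. This measure is not scaled to the size of the change, so genes that both change little lie close. Genes with a large common change with arthritis can also lie close. The SD over the 12 arrays was 0.39 for Dkk2, 1.38 for Wif1 and 1.67 for Sfrp1, so distances are not comparable between antagonists. The measure is a description over arrays that share the 4 groups.

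Other genes of the Wnt pathway moved in both directions. Of 114 listed pathway genes outside the 9, 112 were tested, of which 15 were higher and 15 lower in arthritic Mmp8+/+ mice, or 26.8% in all, and 11 higher and 21 lower in Mmp8-/- mice, or 28.6%. Of all tested features, 18.8% were called in Mmp8+/+ mice, as 7.3% higher and 11.5% lower. In Mmp8-/- mice 21.5% were called, as 8.05% higher and 13.5% lower. The median size of change of the pathway genes was 0.32 and 0.34 on the log2 scale, against 0.29 and 0.32 over all tested features. Sfrp1, Sfrp2, Wif1, Frzb and Sfrp4 each changed more in Mmp8+/+ mice than any of the 112, whose largest change was that of Bambi, which fell by 1.45. In Mmp8-/- mice 4 antagonists, Sfrp1, Sfrp2, Wif1 and Frzb, changed more than any of the 112, whose largest change was that of Lgr4 at -1.90. Between the genotypes, and for the interaction, 0 of the 112 passed the test.

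Of 19 Wnt ligands, 2 passed the test as higher in each genotype, with 0 lower and 0 in common. The share of all tested features called higher with arthritis was 7.3% with Mmp8 and 8.05% without it. For calls of a lower signal this share was 11.5% with Mmp8 and 13.5% without it. Counts for the ligands and for the lists that follow are to be read beside these shares. Among 17 receptors and co-receptors, Mmp8+/+ mice had 4 higher and 2 lower, and Mmp8-/- mice had 2 higher and 2 lower. Fzd1, a Frizzled receptor gene, rose by 1.09 in Mmp8+/+ and 0.66 in Mmp8-/- mice, and Ror2, a receptor for Wnt5a-type ligands, by 0.83 and 0.67. Fzd4, another Frizzled gene, fell by 0.82 and 1.11. The co-receptor gene Lrp5, whose product Dkk1 and Dkk2 bind, fell by 0.63 and 0.94.

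Of 9 genes for R-spondins, which enhance Wnt signals, and their receptors, arthritis gave 2 higher and 1 lower with Mmp8 and 1 higher and 3 lower without it. The receptor gene Lgr4 fell by 1.04 in Mmp8+/+ mice and differed by -1.90 in Mmp8-/- mice. Other secreted or surface inhibitors gave 2 higher and 3 lower of 13 in both genotypes. Draxin, which can bind Lrp6, rose by 0.64 and 1.01, and Igfbp4 by 0.71 and 0.51. The glypican gene Gpc3 fell by 0.88 and 0.98, and Sostdc1, a relative of sclerostin, by 0.80 and 0.99.

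For secretion and intracellular transduction, 1 of 35 genes was higher in each genotype, while 5 were lower in Mmp8+/+ and 8 in Mmp8-/- mice. The co-repressor gene Tle4 fell by 1.16 and 1.11, and the formin gene Daam2 fell by 0.94 and 1.03. Daam1, its relative, fell by 1.04 as the mean of both genotypes. Among 19 TCF/LEF factors and target genes of beta-catenin, the Mmp8+/+ mice had 4 higher and 4 lower and the Mmp8-/- mice 3 higher and 5 lower. Ccn5 rose by 1.24 and 1.03 and Fosl1, an AP-1 subunit gene, by 0.81 and 0.98. Cldn1, a tight junction gene, fell by 1.28 and 1.53, Bambi, a decoy receptor for TGF-beta family ligands, by 1.45 and 1.29, and the receptor gene Tnfrsf19 by 1.24 with a difference of -1.30 in Mmp8-/- mice. Axin2 and Nkd1, feedback targets of the pathway that were singled out after their values were seen, did not pass the test, with differences of -0.05 and -0.29 for Axin2 and -0.01 and -0.02 for Nkd1. Others of the same list did pass. Lef1, a TCF/LEF factor gene, was called lower in both genotypes, with differences of -0.97 and -0.58. Sp5 was called higher in Mmp8+/+ mice at 0.66 and was not called in Mmp8-/- mice at 0.43.

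**Figure D4:**
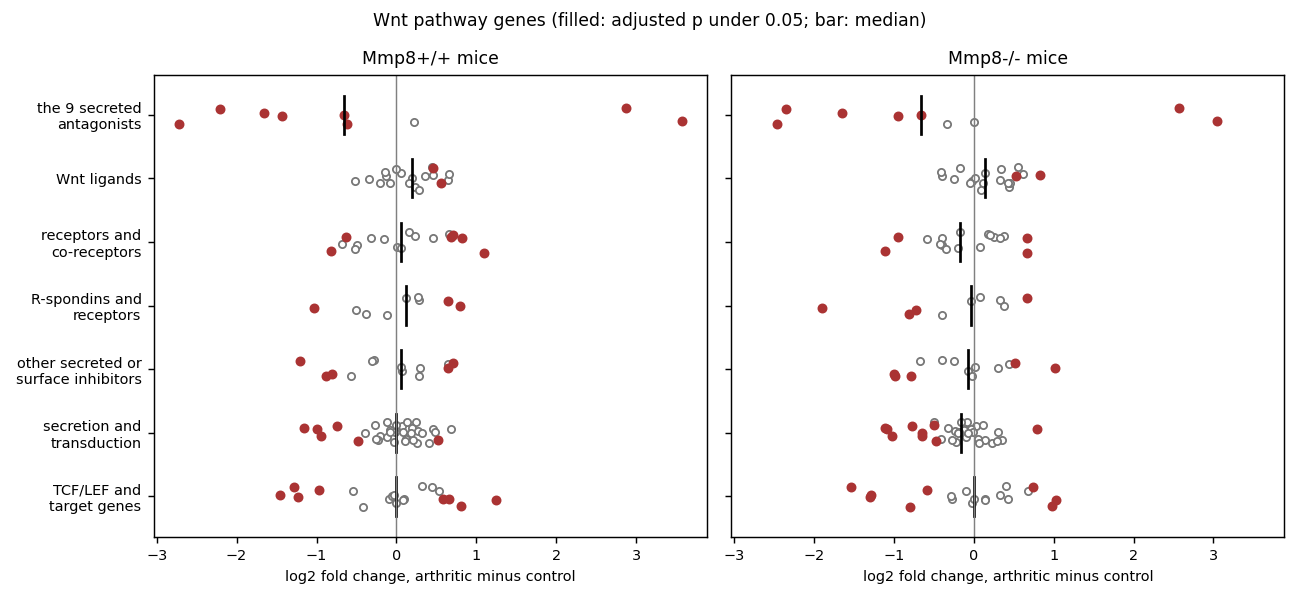
Log2 fold change, arthritic minus control (horizontal axis), of the 9 antagonists and of 6 lists of other Wnt pathway genes, for each genotype; each point is a gene, filled where the adjusted p was under 0.05, and the bar is the median of the list. The antagonists spread from -2.72 to 3.57 in Mmp8+/+ mice, wider than any of the other lists.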

How the data were processed

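Total RNA of the ankle joints of 12 mice was hybridised to Affymetrix Mouse Gene 1.0 ST arrays. The authors deposited log2 RMA values, made with RMA and Partek per the labels, which corrects background, equalizes the quantiles of the arrays and gives 1 value per feature; the genome build is not given in the sources used here. Quantile normalization fixes the distribution of every array, so a shift of all genes would not be seen, and array medians ran from 6.74 to 6.82. The number of arrays limits the precision.

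Features were named from the array's annotation, which gave 1 symbol for 21789 of 28853 features, and 21698 of these were found in the RefSeq table of GRCm38.p6, used for names. Tested were the 18495 single-symbol features with the highest mean over 12 arrays, the lowest at 4.93. This is the number that the methods keep after a filter on background, which cannot be repeated from these values. Groups were tested by limma (version 3.58.1, R version 4.3.3, lmFit and eBayes, 1 mean per group, 12 arrays, 8 residual degrees of freedom, two-sided), and p-values were adjusted by Benjamini-Hochberg over all tested features at 0.05. The same model gave 5 comparisons. Intervals are 95%. The script was tested on simulated data.

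Groups came from the labels. Replicates are separate mice. The members, the pathway and marker lists and the tests were chosen with earlier results of these data known. Named pathway genes were up to 3 rises and 3 falls per list among genes called the same way in both genotypes. The 3 nearest features of each member called in both genotypes were named by root mean square difference. Alternatives changed the test, moderation, array weights, filter, normalization and arrays used. Promoters came from the RefSeq table, and protein sequences were not used here.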

Additional observations from a re-analysis of the deposited data

How the results depend on the processing

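Leaving out each array in turn gave 7 to 8 called antagonists for arthritis in Mmp8+/+ mice, 7 to 7 in Mmp8-/- mice, and 0 to 0 for both genotype comparisons and the interaction. The share of all tested features called lay between 11.2% and 22.9% for arthritis in Mmp8+/+ mice and between 9.93% and 22.2% in Mmp8-/- mice. Ordinary regression over the 6 arrays compared, without moderation, left the fold changes as they were and called 4 of the 9 genes in Mmp8+/+ mice (4.48% of all tested features) and 0 in Mmp8-/- mice (0% of all tested features), where Sfrp1, Sfrp2 and Frzb had adjusted p of 0.0503, 0.0507 and 0.0532. Removing the 3 control arrays that go against their labelled genotype or the stated sex left 1 array in the Mmp8-/- control group. The fit assumed that group to vary like the other groups. For arthritis in Mmp8-/- mice, Sfrp4, Dkk1 and Dkk2 then had log2 differences of -1.46, -1.07 and -0.79. With all arrays these were -1.64, -0.95 and -0.65. Under the same removal the difference between the control genotypes turned to -0.17 for Sfrp1, -0.15 for Sfrp5 and 0.25 for Dkk1, none called. Without arthritic Mmp8-/- mouse 3, Wif1 turned to -0.26 between arthritic genotypes and to -0.32 for the interaction, and over the 12 removals of 1 array these ran up to 0.73 and 0.67. Without arthritic Mmp8-/- mouse 2, Dkk3 turned to -0.25 for arthritis in Mmp8-/- mice, where the removals ran up to 0.16. The causes were not tested. In Mmp8+/+ mice Sfrp5 was called under 21 of 25 alternatives, while Sfrp1, Sfrp2, Wif1 and Frzb were called under all 25. Dkk3 was not among the most variable features and has no value there, and averaging all rows of a gene changed nothing because each gene had 1 row. No paired analysis was possible because the labels give no replicate numbers shared between groups. With 3 mice per group, the 95% interval of the genotype difference in arthritic mice was widest for Wif1, from -0.46 to 1.09.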
